A study of Mus musculus with 6 samples.

Results

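The cardiac fibroblasts of mice with a constricted aorta were set against those of sham operated mice, array by array, with attention to genes outside cell division and the extracellular matrix. The arrays were chosen by their labels: 4 of the 6 arrays of the series hold fibroblasts, and each fibroblast array after surgery was compared with the sham array of its own lineage. The remaining 2 arrays hold endothelial cells and served here only to check cell type markers. In transverse aortic constriction (TAC) a ligature narrows the aorta, so that the left ventricle pumps against a raised pressure, and hypertrophy of the TAC hearts was checked by hemodynamics, per the labels.

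The mice were adult male Black Swiss mice aged 8 to 10 weeks, 3 with TAC and 3 with a sham operation, and cells were sorted from the left ventricle 1 week after surgery. Per the lineage labels all carried Tie2cre, in which the Tek (Tie2) promoter, known from endothelium, drives Cre. Traced fibroblasts are those in which that promoter is active or was active in an ancestor, and untraced fibroblasts are the rest. The 4 groups are traced sham, traced TAC, untraced sham and untraced TAC, with 1 array each, labelled from 200 ng of total RNA. The labels do not say whether the RNA of 3 mice was pooled or whether traced and untraced cells came from the same hearts. No group has a replicate, so no difference below has a test, an error or a p-value, and traced and untraced arrays are not replicates of a surgery. Cells were profiled in bulk, so fewer cells of a type and less RNA per cell cannot be told apart.

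Fibroblasts of the healthy heart are quiescent stromal cells that hold the matrix, clear small molecules and answer hormones, growth factors and cytokines. Under pressure overload they are known to divide, to acquire stress fibres and contractile proteins, and to secrete matrix and inflammatory signals. Many of the genes that distinguish the quiescent state encode enzymes, transporters and hormone receptors rather than matrix proteins.

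Levels are log2 of the deposited intensity, and a difference is TAC minus sham on that scale, so that a difference of 1 is a 2-fold change. A pair of levels for a surgery is given with the traced array first and the untraced array next, and a fold comes from the mean of the traced and the untraced difference. A gene was compared if at least 1 of its 4 levels exceeded the median level of the array in question, and was called higher or lower when both differences reached 2-fold in that direction. Of 11634 genes compared, 509 were called higher (4.38%), 209 lower (1.8%) and 718 either way (6.17%), and the median difference of all genes was 0.05. All 509 stood higher on both TAC arrays than on both sham arrays, and all 209 stood lower on both TAC arrays than on both sham arrays. Outside the lists of proliferation and matrix genes lay 544 of the called genes, 342 higher and 202 lower, and 351 of the 718 were in no list used here.

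The untraced TAC array stood apart in RNA measures. Its 18S ribosomal RNA probe sets averaged 12.04 against 14.11 to 14.32 on the other 3 fibroblast arrays, and its 3′ minus 5′ difference for Gapdh, a measure of RNA integrity, was 2.10 against 1.19 to 1.33. For Actb that difference was -0.14 against -0.32 to -0.27. Without the untraced arrays 733 genes (6.3%) stood at least 2-fold higher and 310 (2.66%) at least 2-fold lower in traced fibroblasts. Without the traced arrays these numbers were 585 (5.03%) and 338 (2.91%) in untraced fibroblasts. For comparison, traced and untraced arrays of the same surgery differed at least 2-fold in 43 genes (0.37%) towards traced and 52 (0.447%) towards untraced at sham, and in 42 (0.361%) and 12 (0.103%) after TAC.

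No gene differed at least 2-fold in opposite directions in traced and untraced fibroblasts. In 689 of the 718 called genes the traced and untraced differences lay within 1 log2 unit of each other, and the median gap was 0.28 in called genes and 0.19 over all genes. Responses at least 4-fold apart were seen in 3 genes, Cd24a, Rpl39l and AY036118. The last stood at 13.65 and 13.39 at sham and at 13.46 and 11.13 after TAC, low on the untraced TAC array alone, the same array that was low in 18S ribosomal RNA. Traced fibroblasts alone passed 2-fold in 224 higher and 101 lower genes, and untraced fibroblasts alone in 76 higher and 129 lower genes. Whether these genes differ in response between the populations was not tested.

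**Figure D1:**
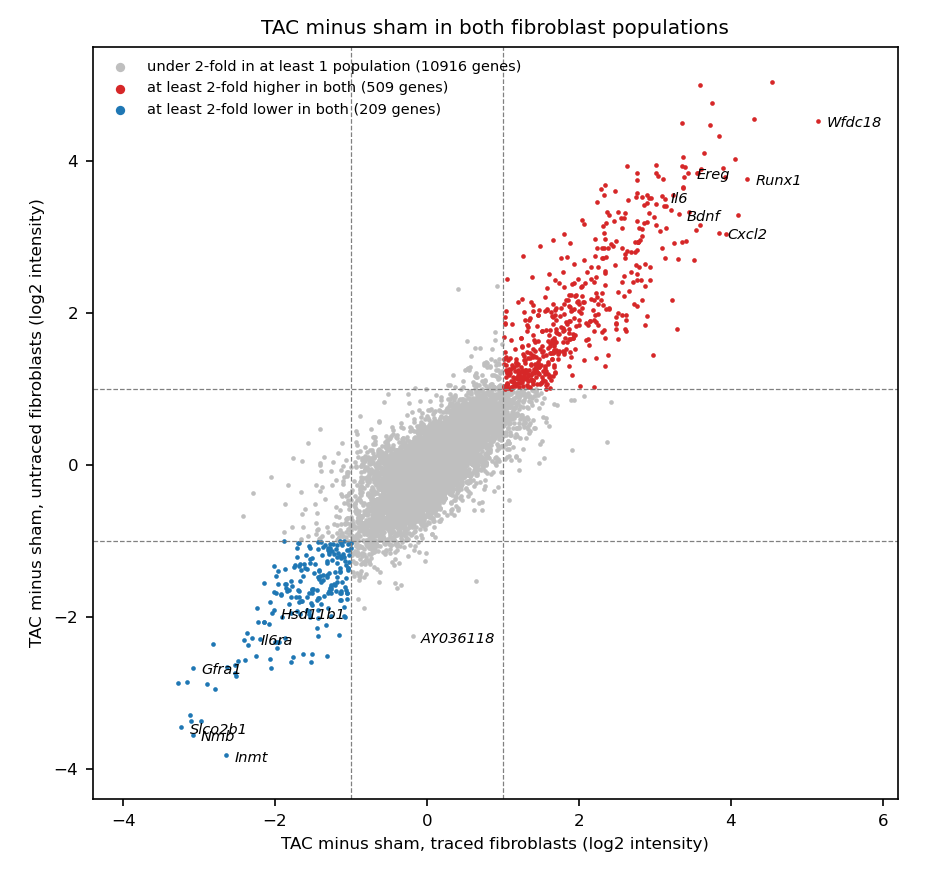
TAC minus sham difference (log2 intensity) of each of 11634 genes in traced fibroblasts (horizontal axis) and untraced fibroblasts (vertical axis), 1 point per gene, with dashed lines at 2-fold. Called genes lie in the upper right (509, red) and lower left (209, blue) corners, and no gene lies in the upper left or lower right corner beyond the lines.

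The sorted cells carried the fibroblast label. All 20 fibroblast markers lay above the median of all 4 fibroblast arrays, and their summed intensity was 196997 to 214075 on the fibroblast arrays against 10596 and 65330 on the endothelial sham and TAC arrays. Pdgfra, the platelet-derived growth factor receptor that marks cardiac fibroblasts, stood at 12.56 and 12.56 at sham and at 12.03 and 12.15 after TAC. Of the 20 markers 1 was called higher, the receptor-like gene Pdgfrl, and 1 lower, the ferritin receptor gene Scara5, and the median difference was -0.14. Endothelial markers were low in sum: the summed intensity of 23 endothelial markers was 11338 to 14296 on the fibroblast arrays against 238101 and 196983 on the endothelial sham and TAC arrays. It was 14057 and 14296 at sham and 11338 and 11750 after TAC, so it stood lower after TAC in both populations. Eng, Tek and Fabp4, the brightest of these markers on the fibroblast arrays, weigh most in that sum. Tek, whose promoter drives Cre here, stood at 11.76 and 11.91 at sham and at 10.70 and 11.14 after TAC. On the endothelial sham and TAC arrays Tek stood at 12.63 and 12.38. How much of the sum comes from endothelial cells was not tested.

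Macrophage markers were partly measurable, and lymphocyte and neutrophil markers mostly lay below the array median. The leukocyte gene Ptprc lay between 4.78 and 5.35, below every array median, which ran from 6.74 to 6.82. Of 18 macrophage markers 9 were compared, and their list summed to 3066 and 2166 at sham and to 2166 and 1644 after TAC, with 0 called higher and 1 lower. The median of the 9 was -0.49, and 5 lay above the array median on all 4 arrays. The gene called lower was the chemokine receptor gene Cx3cr1, at 9.94 and 9.09 at sham and 8.39 and 7.16 after TAC. It was the brightest of the list at sham and so weighs most in the sham sums. Its other probe set, below the array median on all 4 arrays, differed by -0.04. The lysozyme gene Lyz2 lay between 8.01 and 8.47, and Csf1r, the receptor for Il34, stood at 6.85 and 6.63 at sham and at 8.29 and 7.59 after TAC, not called since the untraced difference was under 2-fold. The other probe sets of Csf1r, both below the array median, differed by 0.55 and 0.10. T and NK cell markers summed to 353 to 440 with 1 of 14 compared, neutrophil markers to 322 to 408 with 1 of 10, and B cell markers to 335 to 360 with 1 of 7. No mast cell or erythroid marker was compared.

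Sums over other lists differed between the surgeries. Mural cell markers summed to 12499 and 13483 at sham and to 16318 and 15140 after TAC, a sum that includes Acta2. Of 11 compared, 2 were called higher (Mcam and Acta2) and 4 lower (Vtn, Myh11, Abcc9 and Kcnj8), with a median of -0.56. Adipocyte markers summed to 3407 and 3540 at sham and to 1891 and 2351 after TAC, and 0 of the 2 compared were called. Fabp4, the brightest of the list and also an endothelial marker, stood at 11.57 and 11.64 at sham and differed by -0.91 and -0.64. Epicardial and mesothelial markers summed to 1856 and 2142 at sham and to 4028 and 5488 after TAC. Of the 3 compared 1 was called, the retinoic acid synthesis gene Aldh1a2, the brightest of the list. The mesothelial gene Upk3b lay between 6.34 and 6.75. Cardiomyocyte markers summed to 2122 and 1880 at sham and to 2607 and 2262 after TAC, and of 8 compared 1 was called higher, the cardiac actin gene Actc1. Of 3 lymphatic endothelial markers compared, Reln was called higher, and of 6 Schwann and neuronal markers Prph and S100b were. The part of these cells in the differences below was not tested.

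**Figure D2:**
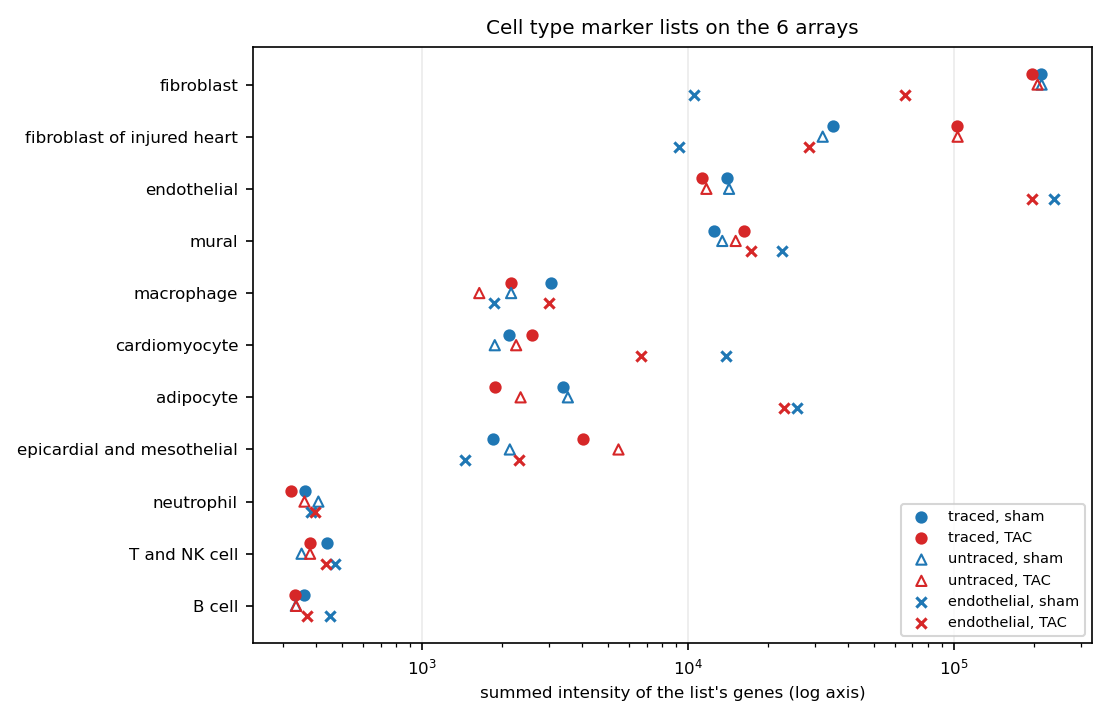
Summed intensity of each cell type marker list (log axis) on the 4 fibroblast arrays (filled circles traced, open triangles untraced) and the 2 endothelial arrays (crosses), with sham in blue and TAC in red. Fibroblast markers sum to 196997 or more on every fibroblast array, endothelial markers to 14296 or less, and the list of injured heart fibroblasts separates TAC from sham.

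Genes known from fibroblasts of injured hearts give a reference point for the surgery, with 10 of 14 such genes called higher and 0 lower, with a median of 1.74. Their sum was 35289 and 32168 at sham and 103067 and 103482 after TAC. These genes were listed with earlier results of these arrays known, so their direction is a description of the samples. Proliferation genes (137 of 230 called higher, 0 lower, median 1.62) and matrix genes (30 of 170 higher, 7 lower, median 0.25) are the context for the processes below and are not described further. Each share of list members below stands against 4.38% called higher and 1.8% called lower over all genes compared. The process lists, too, were written with earlier results of these arrays known, so their shares describe the genes chosen.

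Among inflammatory signals some cytokines and chemokines stood much higher and others much lower. The list had 11 of 49 members called higher and 5 lower, against 4.38% and 1.8% of all genes, with a median of 0.05. Il6, the cytokine interleukin-6, stood at 8.12 and 8.07 at sham and at 11.21 and 11.60 after TAC, 9.94-fold higher. Cxcl2, a neutrophil chemokine, stood at 5.78 and 6.66 at sham and at 9.63 and 9.71 after TAC, 10.9-fold higher. Both sham values of Cxcl2 lay below the array median, so the fold rests on dim values.

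The promoters of Il6, Cxcl2, Cxcl10 and Ccl9 are shown because they are the 4 called-higher cytokine genes whose 250 bases before the start hold a match to the NF-kB motif, the binding sequence of the main inflammatory transcription factor. Sequences are from RefSeq on GRCm38.p6, 5′ to 3′ on the gene's strand, with capitals marking matches to NF-kB or to AP-1 (TGANTCA), both searched on either strand. The regions are chr5:30012864-30013113 (plus strand) for Il6, chr5:90903649-90903898 (plus) for Cxcl2, chr5:92348890-92349139 (minus) for Cxcl10 and chr11:83578637-83578886 (minus) for Ccl9.
Il6: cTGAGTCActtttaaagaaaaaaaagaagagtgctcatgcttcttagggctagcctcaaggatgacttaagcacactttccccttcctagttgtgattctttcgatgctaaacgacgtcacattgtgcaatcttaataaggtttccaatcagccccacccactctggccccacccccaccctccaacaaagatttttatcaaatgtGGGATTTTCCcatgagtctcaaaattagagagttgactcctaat
Cxcl2: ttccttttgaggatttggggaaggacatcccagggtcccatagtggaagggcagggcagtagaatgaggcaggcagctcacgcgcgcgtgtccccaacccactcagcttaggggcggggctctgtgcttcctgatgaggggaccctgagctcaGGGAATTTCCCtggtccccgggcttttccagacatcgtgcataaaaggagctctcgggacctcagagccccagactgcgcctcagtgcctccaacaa
Cxcl10: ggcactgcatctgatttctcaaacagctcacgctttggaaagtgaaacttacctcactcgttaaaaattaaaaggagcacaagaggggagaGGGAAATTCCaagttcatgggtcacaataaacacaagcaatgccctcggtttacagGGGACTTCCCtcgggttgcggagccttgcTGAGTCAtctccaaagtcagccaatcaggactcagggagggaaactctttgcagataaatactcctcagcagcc
Ccl9: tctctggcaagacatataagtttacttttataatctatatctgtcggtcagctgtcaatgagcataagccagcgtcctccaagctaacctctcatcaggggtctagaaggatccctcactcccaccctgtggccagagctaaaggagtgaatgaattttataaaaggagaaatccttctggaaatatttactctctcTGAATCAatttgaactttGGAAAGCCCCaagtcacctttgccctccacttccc

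Il6 held 1 NF-kB match close to the start and an AP-1 match near the far end, Cxcl10 held 2 NF-kB matches and an AP-1 match, Ccl9 held 1 of each, and in Cxcl2 overlapping matches on the 2 strands form the capital run. A promoter was in the table for 7 of the 11 cytokine genes called higher, and 4 of the 7 held an NF-kB match and 3 an AP-1 match. Over all genes compared, 9434 had a promoter, of which 517 (5.48%) held NF-kB and 492 (5.22%) held AP-1. Among genes called higher outside proliferation 21 of 280 (7.5%) held NF-kB and 32 of 280 (11.4%) held AP-1. Among genes called lower 7 of 162 (4.32%) held NF-kB and 15 of 162 (9.26%) held AP-1, and among proliferation genes called higher 3 of 113 (2.65%) held AP-1. A match is a description of letters and not a binding site or a cause, and these shares were not tested.

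Further chemokines stood higher. Ccl9, a chemokine for myeloid cells, stood at 6.40 and 6.44 at sham and at 8.99 and 9.69 after TAC. Cxcl10, an interferon-inducible chemokine, stood at 6.42 and 7.09 at sham and at 9.36 and 9.53 after TAC. Ccl5 differed by 2.21, Cxcl5 by 1.82, Ccl17 by 1.42 and Cx3cl1, the ligand of Cx3cr1, by 1.25. Ccl2, the abundant monocyte chemokine, stood 0.83 higher and was not called. Among secreted cytokines and TNF receptors, Il34, a ligand of the macrophage receptor Csf1r, differed by 1.72, the decoy receptor gene Tnfrsf11b by 1.80 and the receptor gene Tnfrsf12a by 1.15.

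Chemokines and receptors of the resting cells went the other way. Ccl11, eotaxin, which attracts eosinophils, stood at 11.44 and 11.14 at sham and at 8.27 and 8.29 after TAC. Cxcl14, an abundant homeostatic chemokine, stood at 12.80 and 12.84 at sham and at 11.26 and 10.83 after TAC, and the B cell survival factor gene Tnfsf13b differed by -1.27. All levels of Ccl11 and Cxcl14 lay above the array median, so neither side of these differences is dim.

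The interleukin-6 family shows ligand and receptors apart. While Il6 stood higher, Il6ra, which binds the cytokine, stood at 11.01 and 10.42 at sham and at 8.71 and 8.13 after TAC, 4.91-fold lower. Lifr, the receptor chain for leukaemia inhibitory factor, stood at 9.93 and 9.93 at sham and at 8.49 and 8.45 after TAC. Il6st, the signalling chain that the family shares, was at 12.68 and 12.83 at sham and 12.34 and 12.29 after TAC, a difference of -0.45 that was not called. The oncostatin M receptor gene Osmr differed by -0.12 and the feedback inhibitor gene Socs3 by -0.18, and neither was called. Lif stood 1.02 higher on average and was not called, since the untraced difference was just short of 2-fold.

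NF-kB and innate sensing genes were called higher in 4 of 35 (11.4%) and lower in 0, with a median of 0.21. Ptgs2, which makes prostaglandin precursors, stood at 9.15 and 9.03 at sham and at 10.55 and 11.05 after TAC. Tnfaip3, a feedback inhibitor of NF-kB, stood at 8.30 and 8.79 at sham and at 9.97 and 10.27 after TAC. Its promoter is shown because it held both motifs, at chr10:19015411-19015660 on the minus strand, and it was the only one of the 4 with an NF-kB match.
Tnfaip3: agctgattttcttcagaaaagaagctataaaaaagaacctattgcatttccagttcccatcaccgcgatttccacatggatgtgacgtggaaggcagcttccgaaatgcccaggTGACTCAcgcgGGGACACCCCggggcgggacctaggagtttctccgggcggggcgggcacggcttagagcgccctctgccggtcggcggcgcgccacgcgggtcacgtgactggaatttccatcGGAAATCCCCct
The iron-binding protein gene Lcn2 differed by 1.63 and the hyaluronan-modifying gene Tnfaip6 by 1.22, and Nfkbia, another inhibitor of NF-kB, by 0.76, which was not called. With each array centred (on a median other than that of all its probe sets) or with quantile normalization Tnfaip6 was no longer called (1.14 and 1.17).

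Interferon response genes were called higher in 2 of 41 (4.88%) and lower in 2 (4.88%), with a median of 0.19. The antiviral gene Rsad2 stood at 6.84 and 7.69 at sham and at 8.68 and 9.30 after TAC, and the de-ISGylating protease gene Usp18 differed by 1.48. Ifitm1, an interferon-induced membrane protein gene, differed by -1.46 and Mndal by -1.81. Complement and coagulation genes were called higher in 2 of 32 (6.25%) and lower in 2 (6.25%), with a median of -0.23. Cfi, a protease that inactivates complement, differed by 2.74 from dim sham values, and the coagulation inhibitor gene Tfpi2 by 1.57. Vtn, vitronectin, differed by -2.06 and the protein C receptor gene Procr by -1.18.

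Prostaglandin genes split along the pathway. Eicosanoid and lipid mediator genes were called higher in 1 of 21 (4.76%), Ptgs2, and lower in 3 (14.3%), with a median of 0.12. Ptges, which makes prostaglandin E2 from the product of Ptgs2, stood at 9.81 and 9.57 at sham and at 8.74 and 7.97 after TAC. Hpgd, which inactivates prostaglandins, stood at 8.53 and 8.44 at sham and at 6.99 and 7.19 after TAC. The prostaglandin E receptor gene Ptger4 stood 1.14 higher on average and was not called. The sphingosine kinase gene Sphk2 differed by -1.19. Averaged over their probe sets, Ptges (-1.11) and Sphk2 (-0.79) were no longer called.

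**Figure D3:**
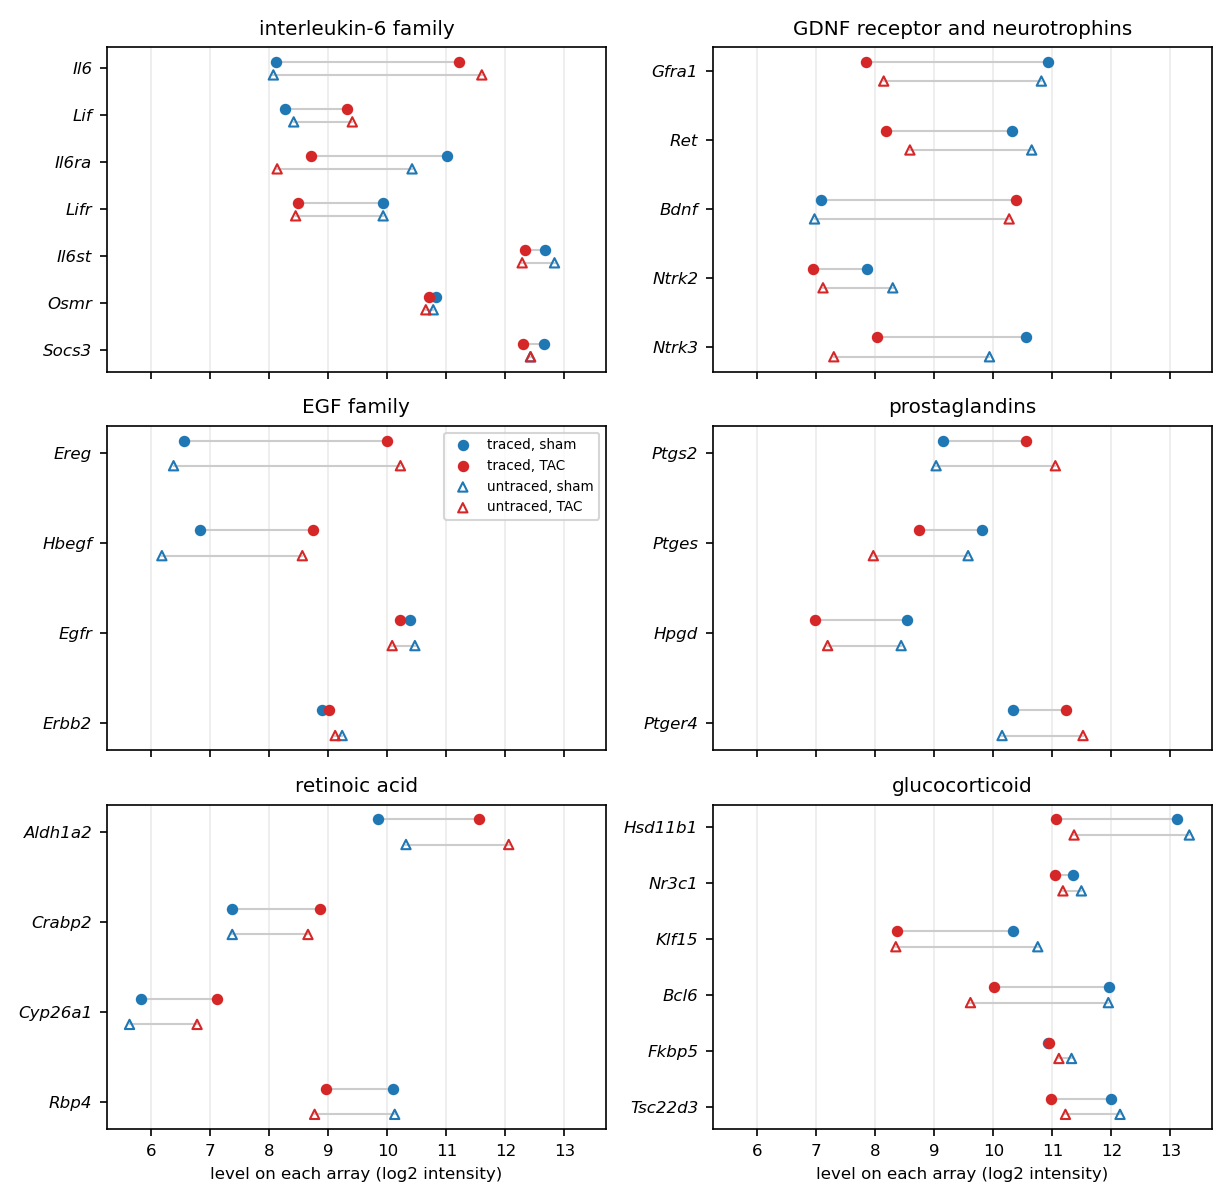
Level of each gene on the 4 arrays (log2 intensity, horizontal axis) for 6 sets of signalling partners, with traced arrays as filled circles, untraced arrays as open triangles, sham in blue and TAC in red, and a grey line joining the arrays of 1 population. Il6, Ereg and Bdnf lie to the right after TAC, Il6ra, Gfra1, Ret and Ntrk3 to the left, and Il6st, Osmr, Egfr, Erbb2 and Nr3c1 move by under 1 log2 unit.

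Growth factor ligands and receptors stood apart in both directions, often within 1 family. Receptor kinase genes and their ligands were called higher in 9 of 74 (12.2%) and lower in 8 (10.8%), with a median of -0.18. Ereg, epiregulin, a ligand of the EGF receptor, stood at 6.56 and 6.38 at sham and at 10.00 and 10.22 after TAC, 12.5-fold higher, from sham values below the array median. Hbegf, another ligand of that receptor, stood at 6.83 and 6.18 at sham and at 8.74 and 8.56 after TAC. Their receptor gene Egfr differed by -0.28 and its partner Erbb2 by 0.00, and neither was called. Pdgfc, a ligand of Pdgfra, stood at 5.14 and 4.81 at sham and at 7.88 and 7.44 after TAC, while Pdgfra differed by -0.47 and Pdgfrb by 0.33.

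The neurotrophin and GDNF systems held large differences in both directions. Bdnf, brain-derived neurotrophic factor, stood at 7.08 and 6.97 at sham and at 10.39 and 10.27 after TAC, 9.88-fold higher, and the TAC and sham levels lay more than 3 log2 units apart. Its receptor gene Ntrk2 differed by -1.05 and was not called. Ntrk3, the receptor for neurotrophin-3, stood at 10.55 and 9.94 at sham and at 8.03 and 7.30 after TAC, but averaged over its probe sets the difference was -1.01 and was not called. Gfra1, which binds GDNF, stood at 10.93 and 10.81 at sham and at 7.85 and 8.14 after TAC, 7.35-fold lower. Ret, the kinase that Gfra1 recruits, stood at 10.32 and 10.65 at sham and at 8.18 and 8.59 after TAC, 4.3-fold lower. Both components of this receptor thus lay well above the array median at sham and lower on both TAC arrays.

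Among fibroblast growth factor genes, a receptor gene stood higher and some ligand genes lower. Fgfr2 stood at 5.69 and 5.96 at sham, below the array median, and at 7.92 and 7.84 after TAC. The ligand genes Fgf7 and Fgf10, which fibroblasts are known to send to epithelium, differed by -1.27 and -1.71. Pgf, placental growth factor, stood at 11.21 and 11.58 at sham and at 9.54 and 9.61 after TAC, Igfbp3, which binds insulin-like growth factors, differed by -1.74 and the angiopoietin-like gene Angptl1 by -1.48. Angptl4, which inhibits lipoprotein lipase, stood 1.25 higher, though not called after the centring of each array. Tyro3 and Ephb3, receptor kinase genes, differed by 1.45 and 1.38.

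Of 11 neuropeptide and hormone genes compared 0 were called higher and 3 (27.3%) lower, with a median of -0.39, and the other 8 were not called. The list was written with earlier results of these arrays known, so its share describes the genes chosen. Nmb, which encodes the peptide neuromedin B, stood at 12.71 and 13.06 at sham and at 9.63 and 9.50 after TAC. Penk, the precursor of enkephalins, stood at 12.62 and 12.65 at sham and at 9.52 and 9.27 after TAC, and Mme, neprilysin, a peptidase that cleaves enkephalins, stood at 10.06 and 10.15 at sham and at 7.24 and 7.79 after TAC. Peptide precursor and peptidase thus lay above the array median at sham and were both lower after TAC. Npy differed by -1.08 to levels below the array median. The receptors of neuromedin B and of enkephalins were not among the genes compared.

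G protein-coupled receptors were called higher in 2 of 42 (4.76%) and lower in 3 (7.14%), with a median of -0.00. Avpr1a, a vasopressin receptor, stood at 11.16 and 11.02 at sham and at 8.26 and 8.13 after TAC, 7.4-fold lower. Vipr2, a receptor for vasoactive intestinal peptide, differed by -1.55 and the adhesion receptor gene Adgrd1 by -1.05. The orphan receptor gene Gpr176 stood at 6.98 and 7.11 at sham and at 9.55 and 9.52 after TAC, and the zinc receptor gene Gpr39 differed by 1.74. Cyclic nucleotide and nucleotide turnover genes were called higher in 4 of 44 (9.09%) and lower in 2 (4.55%), with a median of -0.11. Rgs16, which shortens G protein signals, stood 2.07 higher and its relative Rgs17 differed by -1.97, opposite in direction within 1 family. Ada, adenosine deaminase, differed by 1.34, the kinase gene Prkg2 by 1.54 and the phosphodiesterase gene Pde7a by 1.21. Averaged over probe sets, Pde7a (0.92), Prkg2 (1.54) and the peptidase gene Dpp4 (-1.27 against -1.57 here) were not called. For Prkg2 and Dpp4 the mean stayed past 2-fold, but a call also needs both differences past 2-fold and a level above an array median.

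Among the process lists as chosen, that of enzymes for small molecules had the most members called lower. Detoxification and small-molecule enzymes were called lower in 16 of 60 and higher in 2, against 1.8% and 4.38% of all genes, with a median of -0.42. Inmt, a methyltransferase of indole amines, stood at 11.41 and 11.61 at sham and at 8.77 and 7.79 after TAC, 9.41-fold lower. Ces1d, a carboxylesterase, stood at 11.11 and 11.20 at sham and at 7.83 and 8.32 after TAC, 8.45-fold lower. Gsta3, a glutathione transferase, stood at 11.71 and 12.07 at sham and at 9.20 and 9.30 after TAC. The sham levels of these 3 enzymes lay far above the array median, and no TAC level came near them.

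Several of the lower genes encode oxidising enzymes. Adh1, an alcohol dehydrogenase, stood at 10.52 and 9.60 at sham and at 7.90 and 6.95 after TAC, and Fmo2, a flavin monooxygenase, at 11.93 and 11.91 at sham and at 9.67 and 9.39 after TAC. The molybdenum enzymes went together: Aox3 differed by -2.36, Aox1 by -1.77 and the xanthine dehydrogenase gene Xdh by -1.72. Further members called lower were the sulfotransferase gene Sult1a1 (-2.31), the esterase gene Ces2g (-1.87), Cyp27a1 (-1.67), the pyrimidine-degrading gene Dpyd (-1.67), Maob (-1.52) and the glutathione transferase genes Gstt1 (-1.60), Gstm1 (-1.57) and Gstk1 (-1.31). Gsto1, a glutathione transferase of another class, stood at 7.96 and 7.89 at sham and at 9.55 and 9.94 after TAC. Ggt5, which cleaves glutathione conjugates, stood at 10.82 and 10.83 at sham and at 8.29 and 8.09 after TAC.

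The NRF2 and iron list had a smaller share called lower than the detoxification list, 6.9% against 26.7%, with 1.8% over all genes. NRF2 and iron genes were called higher in 1 of 29, Lcn2, and lower in 2, the metalloreductase gene Steap4 (-1.55) and Scara5 (-1.67), with a median of 0.01. Of NRF2 targets in this list, Nqo1 and Hmox1 stood 0.34 and 0.56 higher and were not called. Scara5, which takes up ferritin, stood at 12.84 and 13.01 at sham and at 10.83 and 11.67 after TAC.

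The list of retinoic acid and nuclear receptor genes had 4 of 36 called higher (11.1%) and 2 lower (5.56%). Called neither way were 30, and the median was -0.27. Apart from Nr4a2, those called higher act in the synthesis, transport or breakdown of retinoic acid. Aldh1a2, which makes retinoic acid, stood at 9.84 and 10.32 at sham and at 11.55 and 12.06 after TAC. Crabp2, which carries retinoic acid to its receptor, stood at 7.37 and 7.37 at sham and at 8.85 and 8.66 after TAC, and Cyp26a1, which degrades it, differed by 1.22 from sham values below the array median. Rbp4, the retinol carrier, stood at 10.10 and 10.13 at sham and at 8.96 and 8.77 after TAC, and Adh1, which oxidises retinol, was lower too. The receptor gene Rarg differed by -0.40 and was not called. With 32 intensity units added before log2, Cyp26a1 was not called (0.87).

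Glucocorticoid-responsive genes were called lower in 5 of 29 (17.2%) and higher in 3 (10.3%), with a median of -0.09. Hsd11b1, the enzyme that regenerates active glucocorticoid inside cells, was the counterpart in the nuclear receptor list, at 13.11 and 13.32 at sham and 11.07 and 11.37 after TAC, 3.98-fold lower. Zbtb16, a transcription factor that glucocorticoid induces, stood at 10.50 and 10.50 at sham and at 7.72 and 7.54 after TAC. Klf15 stood at 10.33 and 10.75 at sham and at 8.37 and 8.35 after TAC, and Bcl6 at 11.96 and 11.95 at sham and at 10.02 and 9.61 after TAC. Glul, glutamine synthetase, differed by -1.08 and Sult1a1 is in this list as well.

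The classical targets were not uniform. Fkbp5 stood at 10.93 and 11.33 at sham and at 10.94 and 11.11 after TAC, a difference of -0.10, and Per1 differed by 0.02. Tsc22d3 differed by -0.97 and Klf9 by -0.83, and neither was called. The receptor gene Nr3c1 differed by -0.30. Members called higher were the lysyl oxidase gene Lox, Lcn2 and Angptl4.

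Of 20 circadian clock genes 0 were called higher and 3 (15%) lower, with a median of -0.36. Dbp, a transcription factor driven directly by the clock, stood at 11.36 and 11.42 at sham and at 10.10 and 9.79 after TAC, and its relative Hlf at 8.88 and 9.44 at sham and at 7.75 and 7.79 after TAC. Per2, a repressor in the clock loop, stood at 7.88 and 8.21 at sham and at 6.43 and 6.43 after TAC, below the array median. Nr1d1 (-1.17) and Cry2 (-1.12) were not called, Arntl, the activator in antiphase to these genes, stood 0.84 higher without being called, and Clock differed by -0.04. The hour at which each group was collected is not given in the sources used here, so surgery and hour of collection cannot be told apart.

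Lipid handling genes were lower in part. Adipogenic and lipid storage genes were called lower in 3 of 35 (8.57%) and higher in 0, with a median of -0.15. G0s2, an inhibitor of triglyceride breakdown, stood at 12.90 and 12.99 at sham and at 11.33 and 11.26 after TAC, and Cd36, a fatty acid transporter, differed by -1.40. The other probe sets of Cd36 were not called, with untraced differences of -0.93 and -0.97. Cd36 is also an endothelial marker, and the endothelial sum stood lower after TAC, as given above. Pparg, the adipogenic receptor, differed by -0.63 and was not called. Of 25 fatty acid oxidation genes 1 was called lower and 0 higher, with a median of 0.02. It was Pdk4, which diverts cells from glucose oxidation, at 9.44 and 9.88 at sham and 8.15 and 8.23 after TAC.

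Core metabolism and housekeeping lists held few or no called genes. Mitochondrial respiratory chain genes (0 of 47 called either way, median 0.03), cholesterol synthesis genes (0 of 21, median 0.12), ribosomal protein genes (0 of 33, median -0.08) and lysosome and autophagy genes (0 of 43, median 0.12) are the 4 process lists with no member called. The largest mean differences in them were -0.46 for Ndufa5 of respiratory complex I, 0.91 for the sterol demethylase gene Cyp51, -0.33 for Rps14 and -0.96 for the collagen-degrading protease gene Ctsk. Glycolysis and hypoxia genes were called higher in 2 of 33 (6.06%) and lower in 0, with a median of 0.26. Slc16a3, which exports lactate, differed by 1.05 and Hif1a, the hypoxia-inducible factor gene, by 1.22. Without possibly cross-hybridising probe sets Hif1a differed by 0.79 and was not called, and Slc16a3 was not called after centring or quantile normalization. Ldha and Pgk1, enzymes of glycolysis, stood 0.72 and 0.78 higher and were not called.

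Biosynthesis lists were close to the background. Amino acid and one-carbon genes were called higher in 2 of 34 (Chac1 and Aldh1l1) and lower in 2 (Glul and Trib3), with a median of 0.10. Aldh1l1 lost its call when another of its probe sets was used (0.06). Protein folding and secretion genes were called higher in 1 of 46, the disulfide isomerase gene Pdia5, and lower in 1, Sdf2l1, with a median of 0.03. Ribosome biogenesis genes were called higher in 1 of 43, Pno1 at 1.02, and lower in 0, with a median of 0.07, while Myc, which drives that programme, stood 0.76 higher. Imprinted genes were called higher in 1 of 19, Mest at 2.22, and lower in 0, with a median of -0.11.

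Transporters differed singly. Solute carriers were called higher in 3 of 45 (6.67%) and lower in 2 (4.44%), with a median of 0.10. Slco2b1, which carries organic anions, stood at 11.75 and 11.90 at sham and at 8.52 and 8.44 after TAC, the lowest mean difference of all called genes here. Slc20a1, a phosphate importer, stood at 8.99 and 9.12 at sham and at 11.18 and 11.15 after TAC, and Slc1a3, a glutamate importer, at 7.74 and 8.09 at sham and at 9.67 and 10.02 after TAC. The calcium exchanger gene Slc24a3 differed by -1.37.

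Ion channel genes were called higher in 6 of 39 (15.4%) and lower in 3 (7.69%), with a median of 0.07. Piezo2, a channel opened by membrane stretch, stood at 6.46 and 6.83 at sham and at 9.08 and 8.59 after TAC, while Piezo1, its relative, stood at 9.81 and 9.84 at sham and 0.60 higher after TAC without being called. Kcne4, a potassium channel subunit, stood at 8.53 and 9.66 at sham and at 10.92 and 11.11 after TAC. Kcnj15 (2.18), Ano4 (1.96), the calcium channel gene Cacna1g (1.80) and the ATP-releasing channel gene Panx1 (1.57) were also called higher. Kcnj8, the pore of the ATP-sensitive potassium channel, stood at 9.85 and 10.29 at sham and at 8.78 and 8.79 after TAC, and its regulatory subunit gene Abcc9 at 10.02 and 10.17 at sham and at 8.63 and 8.34 after TAC. Both are also listed as mural cell markers, of which 4 of 11 were called lower, Vtn (-2.06) and Myh11 (-1.81) among them, with a median of -0.56. The part of mural cells in these differences was not tested. Kcna2 and Clic5 were called lower too, but not when averaged over probe sets (-1.04 and -0.89).

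Cytoskeleton and contractility genes were called higher in 11 of 64 (17.2%) and lower in 1 (1.56%), with 52 neither and a median of 0.28. Palld, palladin, which bundles actin in stress fibres, stood at 8.55 and 8.62 at sham and at 11.36 and 11.58 after TAC. Marcksl1, which links actin to the membrane, stood at 8.50 and 8.16 at sham and at 11.86 and 12.09 after TAC, 12.5-fold higher. Kif26b, a kinesin family member, stood at 5.60 and 5.16 at sham and at 9.25 and 9.27 after TAC, from sham values below the array median. Actn1 (2.06), the LIM domain gene Fhl2 (2.09), the intermediate filament gene Nes (1.98), Csrp2 (1.78) and Synpo (1.37) were called higher as well.

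Smooth muscle genes were not uniform. Tagln stood at 10.14 and 10.16 at sham and at 12.39 and 12.28 after TAC. Acta2, smooth muscle actin, stood at 11.19 and 11.36 at sham and at 12.63 and 12.61 after TAC on a probe set that may cross-hybridise, and its other 2 probe sets, both below the array median, differed by -0.24 and -0.22. Myh11, smooth muscle myosin, stood at 8.47 and 9.28 at sham and at 6.55 and 7.57 after TAC, and averaged over its probe sets the difference was -0.98 and was not called. Hippo-YAP targets, which respond to cell tension, were called higher in 3 of 28 (10.7%) and lower in 0, with a median of 0.18. Ajuba stood at 6.54 and 7.01 at sham and at 8.78 and 8.99 after TAC, Ankrd1 differed by 1.31 from dim sham values, and Birc5 is also a proliferation gene. The abundant targets Ccn1 and Ccn2 stood 0.26 and 0.85 higher and were not called.

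Immediate early genes, which cell isolation is known to induce as well, were called higher in 6 of 35 (17.1%) and lower in 0. Their median was 0.23. Egr2 stood at 11.23 and 11.20 at sham and at 12.92 and 13.11 after TAC, and Egr3 at 9.55 and 9.56 at sham and at 11.42 and 11.65 after TAC. Dusp5, which switches off ERK, differed by 2.36, Nr4a2 by 1.63, Gadd45b by 1.43 and Ier3 by 1.15. Fos, Egr1 and Jun, the most used marks of isolation, were bright on all 4 arrays, from 13.32 to 14.04, and differed by 0.23, 0.17 and -0.09. The part of cell isolation in the differences of this list was not tested. Of the 5 other probe sets of Nr4a2, 3 were called higher, and 2 were not (-0.19 and 0.27).

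Transcription factors of fibroblast and heart development were called higher in 9 of 59 (15.3%) and lower in 4 (6.78%), with a median of 0.06. Runx1, a factor of blood formation that is also found in activated stroma, stood at 6.73 and 6.76 at sham and at 10.94 and 10.53 after TAC, 15.9-fold higher, from sham values below the array median. Scx, which directs tendon cells, stood at 7.84 and 6.99 at sham and at 10.07 and 9.46 after TAC. Meox1, a homeobox factor, stood at 11.45 and 11.60 at sham and at 13.31 and 13.49 after TAC. Etv4 (2.55), Sox4 (1.80), Foxc2 (1.66), Meox2 (1.23), Prrx2 (1.18) and Atoh8 (1.07) were called higher too. Those called lower were Zbtb16, Klf15, Osr1 at 10.50 and 10.96 at sham and 9.30 and 9.30 after TAC, and Foxd1 at -1.91, whose TAC values were dim. Tcf21, the factor that specifies cardiac fibroblasts, stood at 12.95 and 12.91 at sham and at 12.51 and 12.17 after TAC, and was not called.

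Among developmental pathways, some members of the TGF-beta and Wnt lists were called, against 4.38% higher and 1.8% lower of all genes. TGF-beta family genes were called higher in 1 of 48 (2.08%), the oxidase gene Nox4, and lower in 3 (6.25%), with a median of 0.11. Nox4 stood at 8.55 and 8.68 at sham and at 10.23 and 9.99 after TAC. The 3 were the ligand genes Gdf10 (-2.15) and Inhbb (-1.30) and the activin receptor gene Acvr2b (-1.62). Of the TGF-beta ligands Tgfb3 stood 0.94 and Tgfb1 0.79 higher and Tgfb2 differed by -0.49, and none was called. Wnt genes were called higher in 3 of 42 (7.14%) and lower in 1 (2.38%), with a median of -0.01. Nkd2, an inhibitor of Wnt signals, stood at 9.24 and 9.44 at sham and at 11.57 and 11.21 after TAC, and Rspo1, an amplifier of them, at 8.21 and 8.96 at sham and at 6.15 and 6.28 after TAC. The receptor gene Fzd5 differed by 1.55, and Fzd6 by 1.75 but by 0.61 averaged over its probe sets, where it was not called.

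Notch genes were called higher in 2 of 15 (13.3%) and lower in 0, with a median of -0.28. Notch4, a receptor known from endothelium, stood at 7.27 and 7.50 at sham and at 9.50 and 9.75 after TAC, and the endothelial marker sum was lower after TAC. The part of endothelial cells in this difference was not tested. The Notch-modifying gene Lfng differed by 1.25, and the receptors Notch1 (0.29) and Notch2 (-0.41) were not called. Of 19 endothelial markers compared, 3 (Ecscr, Erg and Ptprb) were called higher and 1 (Cd36) lower, with a median of -0.61. Pecam1, the junction gene used to identify endothelium, stood at 7.98 and 7.96 at sham and at 6.76 and 7.18 after TAC, against 13.55 and 13.43 on the endothelial sham and TAC arrays.

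Guidance and adhesion genes were called higher in 7 of 68 (10.3%) and lower in 2 (2.94%), with a median of 0.06. Sema7a, a membrane-bound semaphorin, stood at 7.25 and 6.89 at sham and at 9.94 and 9.43 after TAC. The cadherin genes Cdh2 and Cdh11, which join fibroblasts to one another and to myocytes, stood at 7.97 and 7.95 at sham and 10.55 and 10.44 after TAC, and at 8.92 and 8.72 at sham and 10.91 and 10.75 after TAC. Sema3d (1.28), Itga1 (1.21) and Cd44 (1.19) were also higher, and Sema5a (-1.21) and Cadm3 (-1.22) lower. Sema5a was not called when averaged over probe sets (-0.63). Neuronal-type genes were called higher in 2 of 24 (8.33%), Cpe and Scg2, and lower in 4 (16.7%), with a median of -0.04. The 4 were Gfra1, the vesicle gene Stxbp6 (-1.85) and the adhesion genes Lsamp (-1.33) and Negr1 (-1.28).

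Genes of heparan sulfate and glycosylation were called higher in 5 of 49 (10.2%) and lower in 2 (4.08%), with a median of 0.10. Hs6st2, which adds sulfate to heparan chains, stood at 5.28 and 6.26 at sham and at 8.14 and 8.10 after TAC, but was not called averaged over its probe sets (1.14). The cell surface proteoglycan gene Sdc1 stood at 9.19 and 9.82 at sham and at 10.98 and 11.32 after TAC. Galnt15, which starts mucin-type sugar chains, stood at 10.05 and 10.36 at sham and at 6.94 and 7.08 after TAC, 9.2-fold lower, and Hs3st1 differed by -1.66. Targets of p53 and cell death genes were called higher in 4 of 31 (12.9%) and lower in 0, with a median of 0.16. Cdkn2b, a brake on the cell cycle, stood at 7.04 and 6.52 at sham and at 9.11 and 8.91 after TAC. The canonical p53 targets Cdkn1a and Mdm2 stood 0.16 and 0.38 higher and were not called, and Plk2 (1.36) lost its call averaged over probe sets (0.72).

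**Figure D4:**
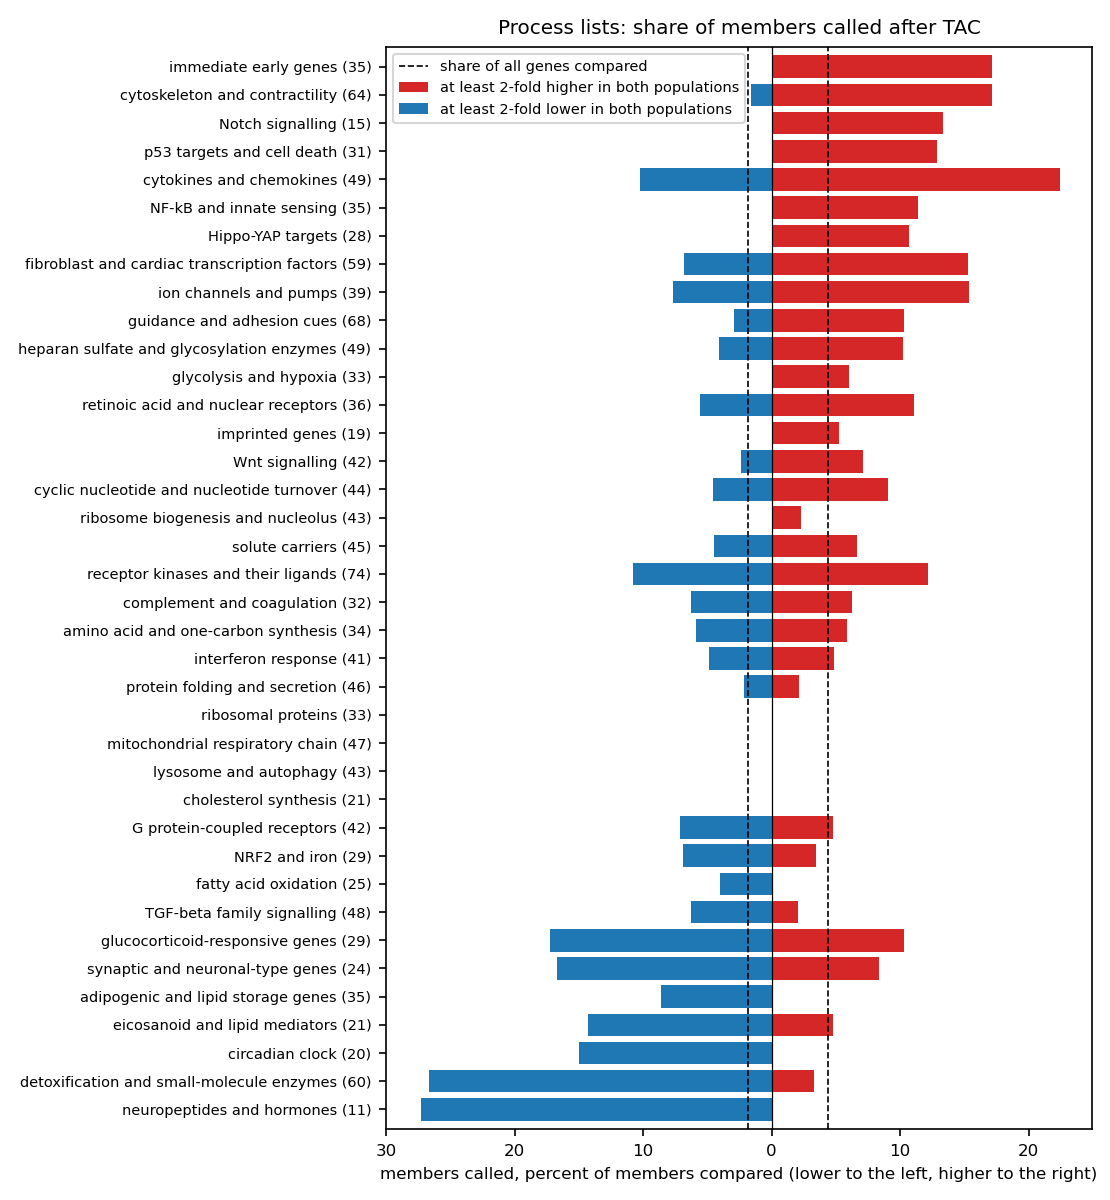
Share of compared members called higher (red, to the right) and lower (blue, to the left) after TAC in each of 38 process lists, in percent, with the number of members compared in brackets and dashed lines at the share of all genes (4.38% and 1.8%). Detoxification enzymes, neuropeptides and glucocorticoid-responsive genes extend to the left, cytokines, cytoskeleton and immediate early genes to the right, and 4 lists have no bar.

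Outside these lists, and outside proliferation and matrix, the largest differences were in genes of mixed function. Wfdc18, a secreted protease inhibitor, stood at 6.82 and 6.32 at sham and at 11.97 and 10.85 after TAC. Ddah1, which breaks down an inhibitor of nitric oxide synthesis, stood at 10.04 and 9.03 at sham and at 13.05 and 12.87 after TAC, 10.7-fold higher. C1qtnf3, a secreted relative of complement C1q, stood at 5.89 and 5.60 at sham and at 9.72 and 9.92 after TAC. Spink2, a serine protease inhibitor, stood at 7.86 and 8.27 at sham and at 11.11 and 11.19 after TAC, and Scube2, a secreted cell surface protein, at 6.92 and 6.63 at sham and at 10.46 and 9.73 after TAC.

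Signal adaptors and actin-associated genes were among the rest. Zfp185, a LIM domain protein, stood at 6.41 and 6.35 at sham and at 10.32 and 10.14 after TAC. Garem2, an adaptor in ERK signalling, stood 13.5-fold higher and the adaptor gene Shc4 8.85-fold higher, both from sham values below the array median. The homeobox gene Gbx2 (3.28), D17H6S56E-5 (3.28) and Gm41724 (3.39) were also among the 20 highest. Klrb1a and Siglecf, lectin receptors known from leukocytes, differed by 3.90 and 3.14 from dim sham values. Siglecf stood at 3.93 and 3.61 at sham and at 6.68 and 7.14 after TAC, and Ptprc, which leukocytes share, lay below the array median on all 4 arrays.

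On the lower side the rest of the 20 were Ppl, Lvrn and Tmem255a beside the genes already given. Ppl, periplakin, a plaque protein of cell junctions, stood at 8.96 and 9.61 at sham and at 5.98 and 6.24 after TAC. Lvrn, an aminopeptidase, stood at 8.64 and 8.54 at sham and at 6.15 and 5.95 after TAC. Together with Mme and Dpp4 it is a cell surface peptidase, and all 3 were called lower. Tmem255a differed by -2.49 and was not called when averaged over probe sets (-2.10) or without possibly cross-hybridising ones (-1.60). Its mean difference stayed past 2-fold in both settings. A call also needs both differences past 2-fold and a level above an array median.

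**Figure D5:**
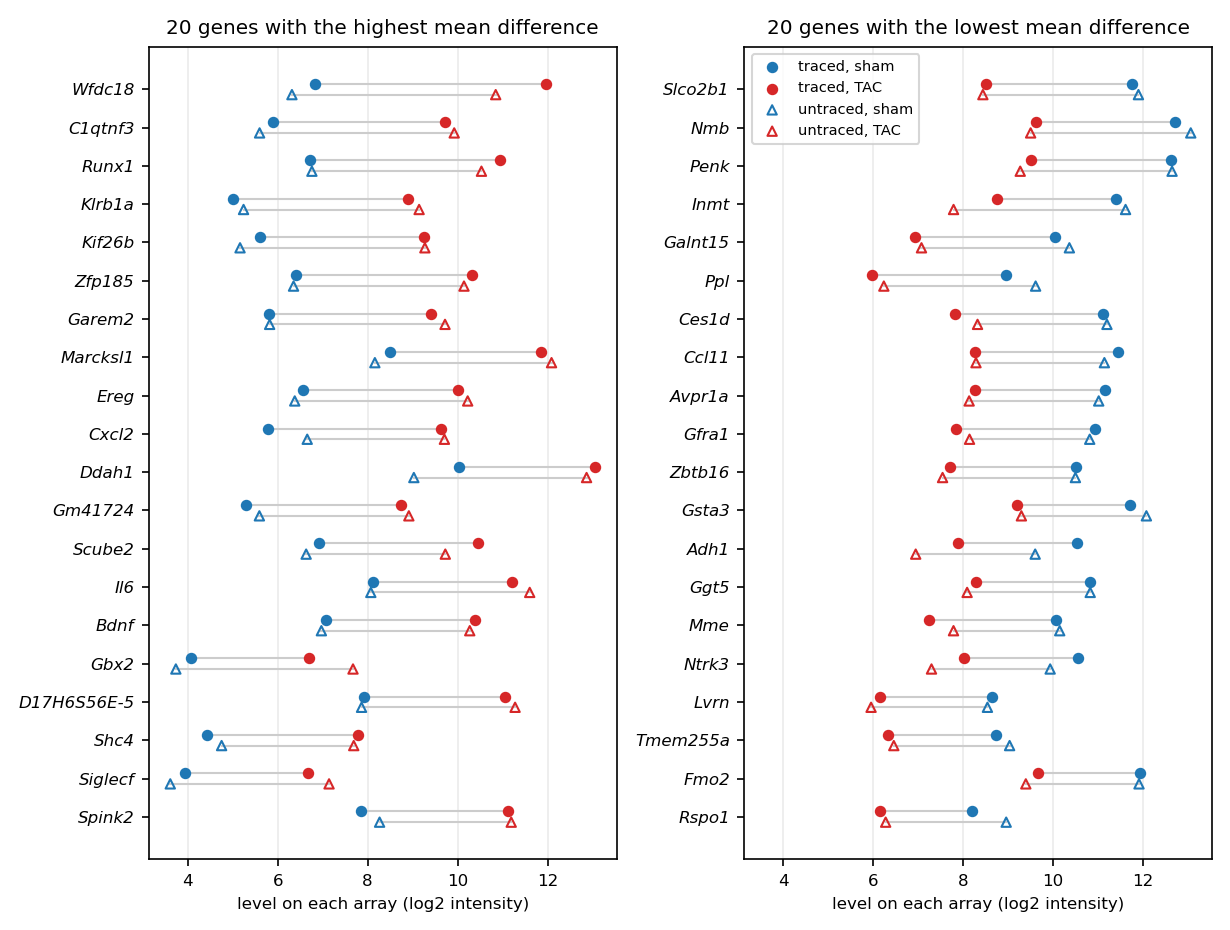
Level on each of the 4 arrays (log2 intensity, horizontal axis) of the 20 called genes with the highest (left) and the 20 with the lowest (right) mean TAC minus sham difference outside proliferation and matrix, with traced arrays as filled circles, untraced arrays as open triangles, sham in blue and TAC in red. In every gene both TAC arrays lie on the same side of both sham arrays, many of the higher genes start below the array median at sham, and most of the lower genes start above 10.

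Brightness bounds how far the folds can be read. Of the 509 genes called higher 207 had both sham values below the array median, and of the 209 called lower 42 had both TAC values below it. The deposited processing gives no detection call and pulls differences of dim probe sets towards 0. With 32 intensity units added before log2, which damps dim genes, 20 named genes were no longer called, among them Ankrd1 (0.92), Chac1 (0.98), Lcn2 (1.12), Npy (-0.85), Foxd1 (-1.25), Scg2 (0.91), Lfng (1.10) and Adgrd1 (-1.03). For named called genes 126 further probe sets lay above an array median, of which 96 were called the same way and 1 had the opposite sign, a probe set of Nr4a2. At the threshold of 2-fold, Mettl7a2 (mean difference -1.05), Zfp827 (1.29) and Man1a (-1.02) lay just inside, and 0610040B10Rik (1.14) and Esr1 (-1.02) just outside, as did Hey2, at 7.26 and 8.00 at sham and 6.25 and 7.01 after TAC.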

How the data were processed

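RNA of 6 samples was profiled on Affymetrix mouse arrays, 1 per group, of which the 4 fibroblast arrays were compared. The authors deposited probe set intensity values made with RMA, per the submitters' processing notes. The version of RMA is not given in the sources used here, and the intensity values proved to be on a linear scale. Their log2 was taken without further normalization. Of 45101 probe sets 34958 had exactly 1 gene symbol in the platform annotation, 932 several and 9211 none listed. Each of 18194 genes was read from 1 probe set, that of highest mean across the 4 fibroblast arrays, and 11634 above the median of an array were compared. The members and lists were chosen with earlier results of these data known. Named were the 20 highest and 20 lowest called genes outside proliferation and matrix, up to 4 called members per direction of each of 38 process lists, the 15 marker lists, threshold genes and signalling partners in a list. Further list members are given as values and were chosen after their values were seen. With 1 array per group no test was possible, and the number of arrays limits the precision. Of 2467 list genes 182 had no probe set of their own. Promoters of 250 bases were taken from RefSeq (GRCm38.p6). Work was done in Python 3.11.15 with numpy 2.4.6, pandas 2.3.3 and matplotlib 3.10.9.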

Additional observations from a re-analysis of the deposited data

How the results depend on the processing

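With 1 array per group, no result has an error, and calls were compared under other settings. Of 169 named genes 132 kept their call under each of the 7 settings that could be run for them, and none changed direction. The settings without a filter on dim genes and with the upper quartile filter leave a gene's differences unchanged. The same call was thus fixed in advance there, for 169 and 124 genes. Genes that the quartile filter dropped were not counted as lost. With 32 intensity units added before log2, 20 lost the call, with the mean of all probe sets 19, and without possibly cross-hybridising probe sets, after centring each array and after quantile normalization 6 each. Kcnq1ot1 gained a call under the last 2. Centring moved the median difference of all genes from 0.05 to -0.03. The median over all probe sets was not higher after TAC (traced 6.82 against 6.82 at sham, untraced 6.74 against 6.80). The median used for centring was therefore another one, and is not given here. The count of genes called higher moved from 509 to 262 with genes kept only if above an array's upper quartile, to 1041 at 1.5-fold and to 275 at 3-fold. The count called lower moved from 209 to 138, 563 and 63 under the same changes, and to 338 without the traced arrays. Of 59 counts for process and context lists, 20 moved by over 1.5 times with that quartile filter, cytokines called higher to 6 from 11 among them. Of the same counts 12 moved without possibly cross-hybridising probe sets, 10 with the mean of all probe sets, 9 with 32 units added and 2 to 4 under the other settings. Dim probe sets limit the folds of genes that start below the array median. No paired analysis was possible because the groups share only replicate number 1, with 1 array each.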
